A study of Saccharomyces cerevisiae with 8 samples.

Results

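The mitochondrial genome of Saccharomyces cerevisiae was followed through all features that the deposited count table places on the chromosome Mito. These were 55 of the 7126 features: 24 tRNAs, 2 ribosomal RNAs, 28 protein-coding or intron reading frames, and RPM1, the RNA of mitochondrial RNase P. The counts came from RNA of 50 to 100 nt, selected from total RNA of cells grown in YPD, a rich medium. The 4 groups, each with 2 libraries, were the ubc9-1 strain with rapamycin (100 nM for 30 min), the ubc9-1 strain untreated, the WT strain (UBC9) with rapamycin at the same dose and time, and the WT strain untreated. The labels state no further allele, and they do not say whether replicates were separate cultures. A p-value here thus reflects library-to-library spread alone, and that spread may be technical.

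UBC9 encodes the enzyme that conjugates the small protein SUMO to its targets, and ubc9-1 is a mutant allele of it. Rapamycin inhibits TORC1, the kinase complex that couples growth to nutrients. Yeast mitochondrial DNA is transcribed by a single-subunit RNA polymerase, RPO41 with the specificity factor MTF1, from several promoters into long RNAs that carry tRNAs together with rRNAs or mRNAs. RNase P and a 3'-end nuclease release the tRNAs, and the mRNAs are trimmed at a conserved motif downstream of the coding sequence. The products are the RNAs of the mitochondrial ribosome, a full set of tRNAs, one ribosomal protein and core subunits of the respiratory chain and ATP synthase. A whole mitochondrial tRNA, 71 to 90 bases long, falls within the selected size, whereas counts on rRNAs and mRNAs can only come from fragments of that size or from reads of other origin.

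The sequences of the 6 tRNAs on which the comparisons turn are given from the RefSeq genome of build R64, with the anticodon in capitals. The first 4 (aspartate, glutamate, serine and lysine) passed the test in at least one comparison. The last pair stood apart in single comparisons only. The phenylalanine tRNA was the 1 tRNA with a positive, though uncalled, value for rapamycin in WT. The valine tRNA was the 1 member with both rapamycin-treated ubc9-1 libraries above both rapamycin-treated WT libraries.
tD(GUC)Q (Mito:68322-68396, + strand): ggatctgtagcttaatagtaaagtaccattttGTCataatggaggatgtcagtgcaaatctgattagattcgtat
tE(UUC)Q (Mito:35373-35444, + strand): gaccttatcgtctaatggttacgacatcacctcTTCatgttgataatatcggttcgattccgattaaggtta
tS(UGA)Q2 (Mito:48201-48290, + strand): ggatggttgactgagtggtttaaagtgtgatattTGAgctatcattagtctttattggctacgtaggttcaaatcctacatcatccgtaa
tK(UUU)Q (Mito:67061-67134, + strand): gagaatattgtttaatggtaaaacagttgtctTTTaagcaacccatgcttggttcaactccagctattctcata
tF(GAA)Q (Mito:77431-77505, + strand): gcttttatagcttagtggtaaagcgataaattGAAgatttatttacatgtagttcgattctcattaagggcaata
tV(UAC)Q (Mito:78533-78608, + strand): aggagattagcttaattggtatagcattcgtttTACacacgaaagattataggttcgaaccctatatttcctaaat

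The starts of the 2 rRNA genes are shown from 100 bases upstream to base 20 of the gene, with the promoter nonanucleotide ATATAAGTA in capitals, because both rRNAs had a positive, though uncalled, fold change in rapamycin-treated WT.
15S_rRNA (Mito:6446-6565, + strand): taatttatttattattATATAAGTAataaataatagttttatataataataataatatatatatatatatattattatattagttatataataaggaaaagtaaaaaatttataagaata
21S_rRNA (Mito:57909-58028, + strand): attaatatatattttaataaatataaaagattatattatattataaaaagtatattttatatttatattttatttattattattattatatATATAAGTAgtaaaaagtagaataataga

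The 12-base word AATAATATTCTT, the known end-processing motif of these mRNAs, is shown in capitals within a stretch of 30 bases downstream of ATP6 and of COX2. It starts 87 bases past the end of ATP6 and 63 bases past the end of COX2. It was taken as the word of that length found downstream of most of the 8 main protein genes, so the number of genes with it is fixed by that choice.
ATP6 (Mito:29344-29373, + strand): cccccttttAATAATATTCTTttatctaat
COX2 (Mito:74567-74596, + strand): aataattatAATAATATTCTTaaatataat

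The nonanucleotide, searched for as an exact match on both strands, occurred 11 times on the plus strand and 3 times on the minus strand. It lay within 250 bases upstream of 3 of the 54 members on the plus strand (15S_rRNA, 21S_rRNA and tM(CAU)Q2), and 2.92% of all windows of that length held it. The 12-base word occurred 9 times on the plus strand and 2 times on the minus strand, and lay within 300 bases downstream of 5 of the 8 main protein genes (COX1, COX2, COX3, COB and ATP6). Of all windows of that length, 3.04% held it. The 2 motifs share no position in the printed sequences. Of the 24 tRNA genes, 16 lie between positions 63862 and 72705 on Mito, and 1 other feature starts in that interval. No stretch of 50 bases of a mitochondrial tRNA occurs elsewhere in the genome, nuclear tRNA copies included.

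Of the 55 members, 31 passed the filter on low counts and were tested: 19 tRNAs, both rRNAs and 10 reading frames. The reading frames tested were COX1, COX2 and COX3 of cytochrome c oxidase, COB (cytochrome b), ATP6, ATP8 and OLI1 of ATP synthase, VAR1 (a protein of the small mitochondrial ribosomal subunit), and Q0182 and Q0255. A further 16 members were at 0 in all 8 libraries, among them all 10 intron reading frames, and 8 were counted but not tested. RPM1 had 2 and 3 counts in rapamycin-treated ubc9-1, 0 and 4 in untreated ubc9-1, 12 and 2 in rapamycin-treated WT and 0 and 4 in untreated WT; it is longer than the selected size. Counting dropped reads that overlap more than one feature, and the intron frames have no base of their own. COX1 was therefore counted over 2434 of its 12884 bases, COB over 1396 of 7108 and 21S_rRNA over 3731 of 4439. The tRNA tL(UAA)Q, which lies almost wholly inside Q0182, was at 0, as was tR(ACG)Q2, which overlaps no feature. At 0 a library could still hold up to 3 counts by counting error alone. Because strand was not used in counting, reads from the opposite strand of a feature could not be told apart.

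Library totals ran from 14304014 to 21061460 assigned counts. Counts on 15S_rRNA, 21S_rRNA, COX1, COB and mitochondrial tRNAs were present in all 8 libraries, so none lacked the transcripts of mitochondrial DNA. UBC9 had 221 and 298 counts in rapamycin-treated ubc9-1, 307 and 554 in untreated ubc9-1, 79 and 114 in rapamycin-treated WT and 2 and 74 in untreated WT, so that all ubc9-1 libraries lay above all WT libraries. Replicate 1 of untreated WT stood lowest in UBC9 and had the smallest scaling factor (0.695), so calls of the main fit that rest on it are given without it. Calls made only under alternative settings, a block on replicate number among them, were not rerun without that library.

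Mitochondrial features took a small part of each library, and the classes did not keep a fixed ratio. Together they held 1.05% and 1.58% of all counts in rapamycin-treated ubc9-1, 0.794% and 1.92% in untreated ubc9-1, 2.82% and 3.44% in rapamycin-treated WT, and 1.41% and 2.07% in untreated WT. Both rapamycin-treated WT libraries lay above the other 6. In a bulk sample, fewer mitochondria or cells and less RNA per cell cannot be told apart.

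Mitochondrial tRNAs held 0.218% and 0.161% of all counts in rapamycin-treated ubc9-1, 0.26% and 0.162% in untreated ubc9-1, 0.456% and 0.339% in rapamycin-treated WT, and 0.477% and 0.391% in untreated WT. All 4 ubc9-1 libraries lay below all 4 WT libraries, and on this scale rapamycin-treated and untreated WT overlapped. On the same scale nuclear tRNA genes held 9.18% and 7.59% of all counts in rapamycin-treated ubc9-1, 13.1% and 9.03% in untreated ubc9-1, 21.8% and 18.1% in rapamycin-treated WT, and 24.5% and 21.3% in untreated WT. Here too all 4 ubc9-1 libraries lay below all 4 WT libraries, and their part in the mitochondrial shares was not tested.

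Mitochondrial rRNAs held 0.786% and 1.36% of all counts in rapamycin-treated ubc9-1, 0.492% and 1.68% in untreated ubc9-1, 2.19% and 2.97% in rapamycin-treated WT, and 0.88% and 1.59% in untreated WT. The reading frames held 0.0483% and 0.0596% in rapamycin-treated ubc9-1, 0.0423% and 0.0782% in untreated ubc9-1, 0.175% and 0.134% in rapamycin-treated WT, and 0.0501% and 0.0893% in untreated WT. For both classes, rapamycin-treated WT lay above the other 6 libraries, which overlapped among themselves. The ratio of rRNA to tRNA counts spread widely within groups: 3.61 and 8.44 in rapamycin-treated ubc9-1, 1.9 and 10.4 in untreated ubc9-1, 4.81 and 8.76 in rapamycin-treated WT, and 1.84 and 4.08 in untreated WT. In each group replicate 1 had the lower ratio.

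**Figure D1:**
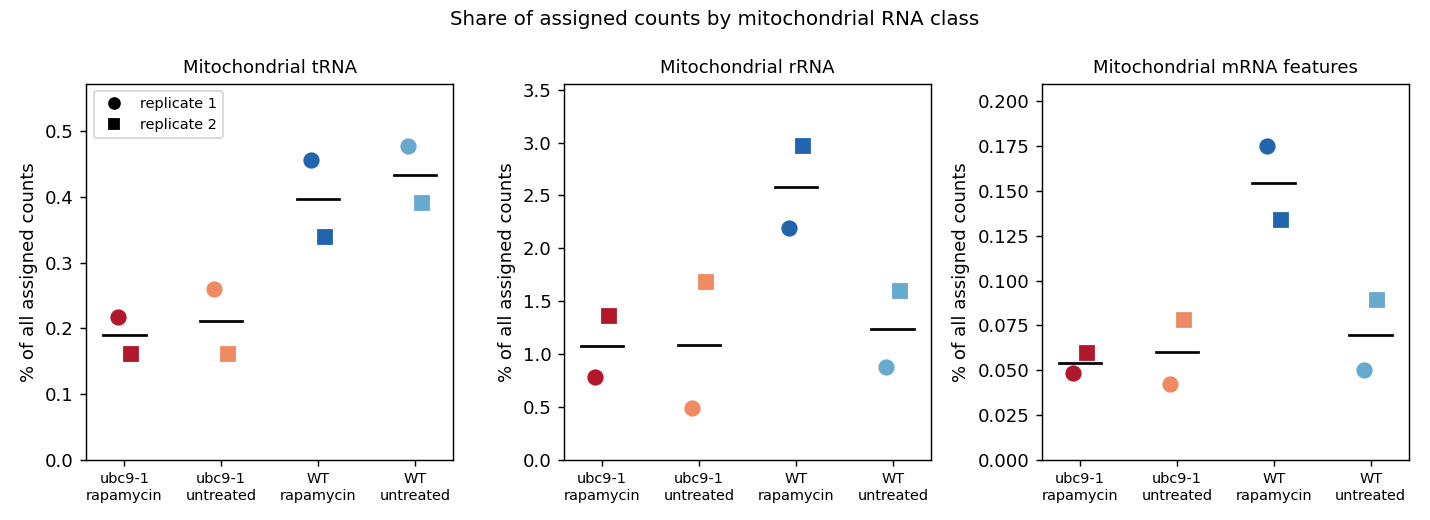
Share of all assigned counts (%, linear axes from 0) held by mitochondrial tRNAs, rRNAs and mRNA features in each library, by group; circles are replicate 1, squares replicate 2 and lines the mean of 2. The tRNA share is at most 0.26% in all 4 ubc9-1 libraries and at least 0.339% in all 4 WT libraries, and the mRNA share is highest in the 2 rapamycin-treated WT libraries (0.175% and 0.134%).

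Levels within a class differed far more than between groups. The tRNAs for phenylalanine, aspartate, glutamine and glutamate (tF(GAA)Q, tD(GUC)Q, tQ(UUG)Q and tE(UUC)Q) held 85.5% of all mitochondrial tRNA counts over the 8 libraries, while tM(CAU)Q2, a methionine tRNA, had 43 counts in all and tR(UCU)Q1, an arginine tRNA, had 19. Across the 23 tRNAs with assignable reads, Spearman's rho between GC content and summed counts was 0.459, a description over genes of the same libraries. GC content ran from 17.6% in tR(ACG)Q2 to 44.4% in tP(UGG)Q.

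Per kilobase of unshared sequence, in CPM (counts scaled to library size) after TMM scaling, a trimmed-mean adjustment between libraries, 15S_rRNA had a level of 3981 and 6016 in rapamycin-treated ubc9-1, 2788 and 6525 in untreated ubc9-1, 9697 and 9478 in rapamycin-treated WT, and 5113 and 7010 in untreated WT. Among mRNAs on the same scale, COX3 had a level of 141.1 and 209 in rapamycin-treated ubc9-1, 142.2 and 215 in untreated ubc9-1, 358 and 318 in rapamycin-treated WT, and 225 and 314 in untreated WT. VAR1 had a level of 2.6 and 3.19 in rapamycin-treated ubc9-1, 6.97 and 3.04 in untreated ubc9-1, 16.6 and 5.66 in rapamycin-treated WT, and 10.3 and 7.74 in untreated WT. VAR1 lay below COX3 in every library.

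The first comparison asked what rapamycin did in WT. There 2 mitochondrial tRNAs fell, those for aspartate and one for serine, and no member rose, in a fit without the replicate number as a block. The tRNAs and the other classes lay on opposite sides of 0: 18 of 19 tRNAs had a negative log2 fold change (median -0.80), while both rRNAs (median 0.54) and all 10 mRNA features (median 0.63) had a positive one, beside a median of 0.04 over all 6115 features tested. With edgeR's quasi-likelihood test at an adjusted p of 0.05, 2 of 31 members were called, against 20.4% of all features (8.77% called higher and 11.6% lower). With the replicate number as a block the edgeR test called 15 of 31, 10 tRNAs lower and 5 mRNAs higher, against 30.9% of all features in that fit (14.6% higher and 16.3% lower), so that whether the members' share lay below or above that of all features depended on the block. Without replicate 1 of rapamycin-treated WT the medians were -1.28 for tRNAs and 0.23 for mRNA features, and without replicate 2 they were -0.47 and 0.81. The class medians kept their sides under the other scalings, but single members did not. On total counts the tRNA median was -0.39, beside 0.52 over all features. There tP(UGG)Q (0.05), tW(UCA)Q (0.09), tK(UUU)Q (0.06) and tI(GAU)Q (0.15) were positive. Scaled to mitochondrial counts, VAR1 was -0.06.

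tD(GUC)Q, the aspartate tRNA, had 587 and 327 CPM after TMM scaling in rapamycin-treated WT, against 1811 and 1067 CPM in untreated WT. Both rapamycin libraries lay below both untreated ones. The log2 fold change was -1.65 (SE 0.46, edgeR adjusted p = 0.0205). The call was lost without replicate 1 of untreated WT (-1.25, adjusted p = 0.12) and without replicate 2 of rapamycin-treated WT (-1.29, adjusted p = 0.19).

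tS(UGA)Q2, a serine tRNA, had 29.3 and 14 CPM after TMM scaling in rapamycin-treated WT, against 63.5 and 38.9 CPM in untreated WT. The groups did not overlap, and the log2 fold change was -1.24 (SE 0.39, edgeR adjusted p = 0.0393). Without replicate 1 of untreated WT it was -0.87 (adjusted p = 0.202) and without replicate 2 of rapamycin-treated WT -0.80 (adjusted p = 0.321); leaving out replicate 1 or 2 of rapamycin-treated ubc9-1 gave -1.23 both times (adjusted p = 0.0569 and 0.0575). Scaling to total counts gave -0.74 (adjusted p = 0.283) and a TMM scaling on snoRNAs gave -1.13 (adjusted p = 0.168); the call was also lost with limma (-0.77, adjusted p = 0.231) and with only the groups compared (-1.24, adjusted p = 0.0519).

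No other member passed without the block. With it, tA(UGC)Q (-1.45), tE(UUC)Q (-1.36), tQ(UUG)Q (-1.25), tC(GCA)Q (-1.11), tY(GUA)Q (-1.03), tV(UAC)Q (-0.97), tS(GCU)Q1 (-0.83) and tN(GUU)Q (-0.65) were also called lower, at edgeR adjusted p of at most 0.0451. Of the well-counted tRNAs, the log2 fold change was -1.33 (SE 0.54, adjusted p = 0.095) for tE(UUC)Q and -1.17 (SE 0.51, adjusted p = 0.119) for tQ(UUG)Q in the edgeR fit. The phenylalanine tRNA tF(GAA)Q was the 1 tRNA with a positive value, 0.20 (SE 0.57, adjusted p = 0.843). It had 2109 and 1475 CPM after TMM scaling in rapamycin-treated WT and 2137 and 977 CPM in untreated WT, so the groups overlapped. Its share of mitochondrial tRNA counts was 51.4% and 59.5% in rapamycin-treated WT, against 31.1% and 27.2% in untreated WT, without overlap.

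The remaining tRNAs had log2 fold changes of -1.40 for tA(UGC)Q (alanine), -1.08 for tM(CAU)Q1 (methionine), -1.04 for tY(GUA)Q (tyrosine), -0.97 for tV(UAC)Q (valine), -0.82 for tC(GCA)Q (cysteine), -0.80 for tS(GCU)Q1 (serine) and -0.72 for tN(GUU)Q (asparagine). Values nearer 0 were -0.68 for tH(GUG)Q (histidine), -0.54 for tG(UCC)Q (glycine), -0.50 for tP(UGG)Q (proline), -0.48 for tT(XXX)Q2 (named tT(UAG)Q2 in RefSeq, a threonine tRNA), -0.41 for tW(UCA)Q (tryptophan), -0.39 for tI(GAU)Q (isoleucine) and -0.39 for tK(UUU)Q (lysine). None of these passed the test without the block. In 9 of the 19 tRNAs both rapamycin libraries lay below both untreated ones, and in none above, beside 28% of all features below and 32.2% above.

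15S_rRNA, the RNA of the small ribosomal subunit, had 15990 and 15630 CPM after TMM scaling in rapamycin-treated WT and 8432 and 11560 CPM in untreated WT. The groups did not overlap, yet the log2 fold change of 0.66 (SE 0.41) did not pass (edgeR adjusted p = 0.288). For 21S_rRNA, the RNA of the large subunit, the value was 0.42 (SE 0.38, adjusted p = 0.48) and the groups overlapped.

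COB had 265 and 137 CPM after TMM scaling in rapamycin-treated WT, against 107 and 80.2 CPM in untreated WT. Both rapamycin libraries lay above both untreated ones, and the log2 fold change was 1.10 (SE 0.40, edgeR adjusted p = 0.0635). ATP6 had 443 and 119 CPM in rapamycin-treated WT, against 147 and 96.3 CPM in untreated WT, so that replicate 1 carried most of the difference and the groups overlapped (log2 fold change 1.21, SE 0.53, adjusted p = 0.121). ATP8 gave 1.31 (SE 0.58, adjusted p = 0.126) and COX1 gave 0.76 (SE 0.37, adjusted p = 0.162). The other mRNA features had 0.74 for OLI1, 0.52 for Q0182, 0.37 for COX2, 0.34 for Q0255, 0.33 for COX3 and 0.31 for VAR1. In 7 of 10 mRNA features both rapamycin libraries lay above both untreated ones, and in 0 below, beside 32.2% of all features above and 28% below. Scaling to total counts, which put the median of all features at 0.52, brought COB (1.58, adjusted p = 0.0187), ATP6 (1.66, adjusted p = 0.0207) and ATP8 (1.81, adjusted p = 0.0335) past the threshold. Without replicate 2 of rapamycin-treated WT the log2 fold changes were 1.95 for ATP8, 1.87 for ATP6 and 1.51 for COB. Without replicate 1 of that group they were only 0.17 for ATP8, -0.02 for ATP6 and 0.56 for COB, and VAR1 turned to -0.66. The size of the rise in these mRNAs thus depended on replicate 1. Limma called the same 3 mRNAs higher and tD(GUC)Q lower. It ran on CPM scaled to total counts only, which put the median of all features at 0.43, so it is no separate scaling. With the replicate block the mRNAs called higher were ATP8 (1.17, adjusted p = 0.00485), COB (1.05, adjusted p = 0.00248), ATP6 (1.01, adjusted p = 0.0112), OLI1 (0.83, adjusted p = 0.0253) and COX1 (0.81, adjusted p = 0.0258).

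Some tRNAs and mRNAs with opposite signs are known to leave the same promoter on one RNA. tE(UUC)Q precedes COB on a shared RNA, and their log2 fold changes in rapamycin-treated against untreated WT were -1.33 (SE 0.54) and 1.10 (SE 0.40). tS(UGA)Q2 lies between OLI1 and VAR1 on another, and the 3 values were -1.24 (SE 0.39) for the tRNA, 0.74 (SE 0.46) for OLI1 and 0.31 (SE 0.48) for VAR1. COX1, ATP8 and ATP6, also carried on a common RNA, had 0.76, 1.31 and 1.21. The differences between neighbours were not tested.

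**Figure D2:**
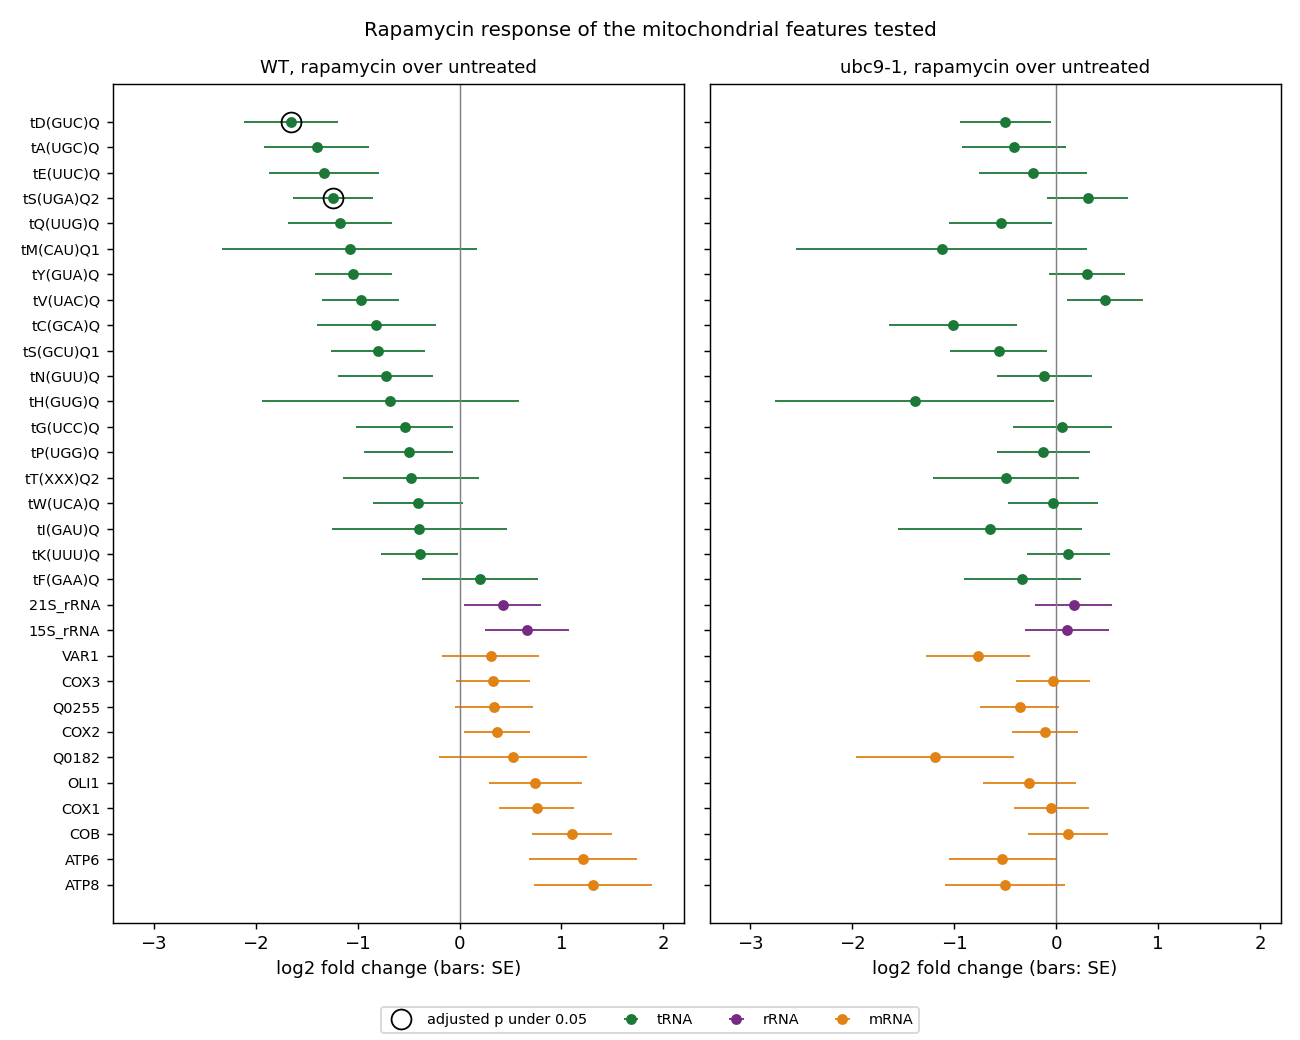
Log2 fold change of rapamycin over untreated (x axis; bars are the SE) for the 31 mitochondrial features tested, in WT (left) and ubc9-1 (right), sorted by the WT value within tRNA, rRNA and mRNA; open circles mark adjusted p under 0.05 in the fit without the replicate block. In WT, 18 of 19 tRNAs lie left of 0 and all rRNA and mRNA features right of it, with 2 tRNAs called; in ubc9-1 no feature was called.

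In ubc9-1, no member passed the test for rapamycin. The edgeR test called 0 of 31 members, and 0 had an unadjusted p under 0.05; the DESeq2 Wald test and limma also called 0. Of all features, 1.49% were called (0.834% higher and 0.654% lower). With the replicate block the edgeR test also called 0 of 31, against 4.02% of all features (1.57% higher and 2.45% lower). The median log2 fold change was -0.33 for tRNAs, 0.14 for rRNAs and -0.31 for mRNA features, beside -0.01 over all features. The tRNA median was 0.40 without replicate 1 of untreated ubc9-1 and the rRNA median was -0.12 without it; the rRNA median was -0.24 without replicate 2 of rapamycin-treated ubc9-1. Scaling on snoRNAs put the rRNA median at -0.56 and the median of all features at -0.64.

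tD(GUC)Q had 378 and 368 CPM after TMM scaling in rapamycin-treated ubc9-1, against 736 and 320 CPM in untreated ubc9-1 (log2 fold change -0.50, SE 0.45, edgeR adjusted p = 0.845). tE(UUC)Q had 104.9 and 78.6 CPM in rapamycin-treated ubc9-1, against 139 and 75.7 CPM in untreated ubc9-1 (-0.23, SE 0.53, adjusted p = 0.953). In both, the 2 untreated replicates lay on either side of the rapamycin ones. tV(UAC)Q had 151 and 162 CPM in rapamycin-treated ubc9-1, against 138 and 86.5 CPM in untreated ubc9-1, and was the 1 member with both rapamycin libraries above both untreated ones (0.48, SE 0.37, adjusted p = 0.8). Below were 2 members, tC(GCA)Q (-1.02, SE 0.63) and the low-count tH(GUG)Q (-1.39, SE 1.37); the shares of all features were 19.7% above and 19.7% below.

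The other tRNAs had log2 fold changes between -1.12 for tM(CAU)Q1 and 0.31 for tS(UGA)Q2. Between these lay -0.65 for tI(GAU)Q, -0.57 for tS(GCU)Q1, -0.54 for tQ(UUG)Q, -0.49 for tT(XXX)Q2, -0.41 for tA(UGC)Q, -0.33 for tF(GAA)Q, -0.13 for tP(UGG)Q, -0.12 for tN(GUU)Q and -0.03 for tW(UCA)Q, with 0.06 for tG(UCC)Q, 0.12 for tK(UUU)Q and 0.30 for tY(GUA)Q. The mRNA features ran from -1.19 for Q0182 to 0.12 for COB, with -0.53 for ATP6 and -0.05 for COX1. The rRNAs gave 0.10 for 15S_rRNA and 0.17 for 21S_rRNA.

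The third comparison set ubc9-1 against WT without rapamycin. Here 3 tRNAs were lower in ubc9-1, those for glutamate, lysine and serine, and no member was higher. All 19 tRNAs had a negative log2 fold change, with a median of -1.23, beside 0.02 over all features; the rRNA median was -0.52 and the mRNA median -0.10. The edgeR test called 3 of 31 members, all lower, against 4.69% of all features (2.29% called higher and 2.4% lower). With the replicate block it called 11 tRNAs, all lower, against 16.5% of all features in that fit (7.96% higher and 8.59% lower). Without replicate 1 of untreated ubc9-1 the tRNA median was -2.10 and without replicate 2 it was -0.76; the mRNA median was -0.50 without that replicate 2 and -0.06 without replicate 2 of rapamycin-treated ubc9-1. The tRNA median kept its sign under the other scalings (-0.44 when libraries were scaled to their mitochondrial counts, -0.56 on snoRNAs). The rRNA and mRNA medians turned to 0.54 and 0.73 on snoRNAs, where the median of all features was 0.97, and to 0.06 and 0.53 on mitochondrial counts, where it was 0.62.

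tE(UUC)Q had 139 and 75.7 CPM after TMM scaling in untreated ubc9-1, against 926 and 362 CPM in untreated WT. Both ubc9-1 libraries lay below both WT libraries, and the log2 fold change was -2.58 (SE 0.56, edgeR adjusted p = 0.026). The call was lost without replicate 1 of untreated WT (-1.75, adjusted p = 0.111), without replicate 2 of untreated ubc9-1 (-2.20, adjusted p = 0.109) and with scaling to mitochondrial counts (-1.88, adjusted p = 0.0572).

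tK(UUU)Q, the lysine tRNA, had 2.34 and 2.55 CPM after TMM scaling in untreated ubc9-1 (35 and 59 counts), against 10.6 and 8.99 CPM in untreated WT (119 and 162 counts). The groups lay far apart relative to their spread, with a log2 fold change of -1.99 (SE 0.40, edgeR adjusted p = 0.0203). Without replicate 1 of untreated WT it was -1.88 (adjusted p = 0.0538), without replicate 1 of untreated ubc9-1 -1.92 (adjusted p = 0.0622) and without replicate 2 of untreated ubc9-1 -2.06 (adjusted p = 0.0709). Scaling to total counts gave -1.80 (adjusted p = 0.109), limma gave -1.49 (adjusted p = 0.104), and scaling on snoRNAs gave -1.02 (adjusted p = 0.223).

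tS(UGA)Q2 had 20.2 and 11.5 CPM after TMM scaling in untreated ubc9-1, against 63.5 and 38.9 CPM in untreated WT, without overlap. The log2 fold change was -1.70 (SE 0.40, edgeR adjusted p = 0.0329). It was -1.30 (adjusted p = 0.124) without replicate 1 of untreated WT and -1.34 (adjusted p = 0.148) without replicate 2 of untreated ubc9-1; leaving out replicate 1 or 2 of rapamycin-treated ubc9-1 gave -1.66 both times (adjusted p = 0.0555 and 0.0565). The call was also lost on total counts (-1.57, adjusted p = 0.0832), on snoRNAs (-0.84, adjusted p = 0.235), on mitochondrial counts (-1.01, adjusted p = 0.158), with limma (-1.504, adjusted p = 0.0626) and with only the groups compared (-1.66, adjusted p = 0.0571). Without replicate 1 of untreated WT, none of the main-fit calls in WT under rapamycin or between the untreated strains was kept. Both comparisons use the untreated WT libraries.

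Of the other tRNAs, tN(GUU)Q had a log2 fold change of -1.59, tP(UGG)Q -1.49, tD(GUC)Q -1.45, tA(UGC)Q -1.44, tS(GCU)Q1 -1.41, tQ(UUG)Q -1.32, tM(CAU)Q1 -1.23, tC(GCA)Q -1.11, tY(GUA)Q -1.09 and tW(UCA)Q -1.01, with edgeR adjusted p of at least 0.07. With the replicate block tN(GUU)Q, tP(UGG)Q, tD(GUC)Q, tA(UGC)Q, tS(GCU)Q1, tQ(UUG)Q, tY(GUA)Q and tW(UCA)Q were called as well. The values of tT(XXX)Q2, tG(UCC)Q, tV(UAC)Q, tF(GAA)Q, tI(GAU)Q and tH(GUG)Q were -0.95, -0.83, -0.60, -0.48, -0.35 and -0.23. In 12 of 19 tRNAs both ubc9-1 libraries lay below both WT ones, and the same held for 21S_rRNA and for 4 of 10 mRNA features (COX1, COX2, COX3 and VAR1), beside 22.6% of all features below and 24.8% above. tF(GAA)Q, with 1787 and 454 CPM after TMM scaling in untreated ubc9-1 and 2137 and 977 CPM in untreated WT, overlapped. The mRNA values ran from -0.86 for VAR1 to 0.12 for ATP8, and COB had 0.12. Nuclear tRNA genes had a median of -1.30 in the same comparison, with 69 of 263 called lower.

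With rapamycin in both strains, no member passed between ubc9-1 and WT without the replicate block, and 17 passed with it. The edgeR test called 0 of 31 members, against 2.01% of all features (1.24% higher and 0.769% lower), while 15 members had an unadjusted p under 0.05. The DESeq2 Wald test called 5 members, against 5.61% of all features, and limma called 1, against 0.703%. With the block the edgeR test called 8 mRNAs, both rRNAs and 6 tRNAs lower and tV(UAC)Q higher, against 10.7% of all features in that fit (5.25% higher and 5.45% lower). The median log2 fold change was -1.21 for mRNA features, -0.92 for rRNAs and -0.94 for tRNAs, beside 0.00 over all features. In all 10 mRNA features and both rRNAs both ubc9-1 libraries lay below both WT ones, as they did in 9 of 19 tRNAs, beside 27.2% of all features below and 27.2% above. Scaled to mitochondrial counts, the tRNA median was 0.04; without replicate 1 of rapamycin-treated WT it was 0.13. Nuclear tRNA genes had a median of 0.01 in the same fit, with 3 of 263 called lower.

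ATP6 had 88.2 and 64.8 CPM after TMM scaling in rapamycin-treated ubc9-1, against 443 and 119 CPM in rapamycin-treated WT (log2 fold change -1.88, SE 0.54, edgeR adjusted p = 0.0849). VAR1 had 3.11 and 3.82 CPM in rapamycin-treated ubc9-1, against 19.8 and 6.77 CPM in rapamycin-treated WT (-1.93, SE 0.51, adjusted p = 0.0664). COX1 had 79.1 and 132 CPM in rapamycin-treated ubc9-1, against 307 and 249 CPM in rapamycin-treated WT (-1.40, SE 0.37, adjusted p = 0.0685). With the replicate block the values were -1.65 (adjusted p = 0.000905) for ATP6, -1.74 (adjusted p = 0.00452) for VAR1 and -1.45 (adjusted p = 0.00132) for COX1. For ATP6 and VAR1 the gap to replicate 1 of WT was much wider than the gap to replicate 2. The other values were -1.69 for ATP8, -1.64 for Q0182, -1.02 for OLI1, -0.98 for COX2, -0.95 for COX3, -0.87 for COB and -0.75 for Q0255.

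15S_rRNA had 6564 and 9920 CPM after TMM scaling in rapamycin-treated ubc9-1, against 15990 and 15630 CPM in rapamycin-treated WT (log2 fold change -0.94, SE 0.42, edgeR adjusted p = 0.262). 21S_rRNA had 1970 and 3263 CPM in rapamycin-treated ubc9-1, against 3759 and 6063 CPM in rapamycin-treated WT (-0.91, SE 0.38, adjusted p = 0.238). Neither overlapped, and with the replicate block both were called, at -1.0 (adjusted p = 0.0248) for 15S_rRNA and -0.91 (adjusted p = 0.0453) for 21S_rRNA. Among tRNAs, tK(UUU)Q had -1.48 (SE 0.40, adjusted p = 0.0707) and tE(UUC)Q -1.48 (SE 0.54, adjusted p = 0.169). The tRNAs called lower with the block were these, at -1.44 and -1.29, and tS(GCU)Q1 (-1.28), tP(UGG)Q (-1.16), tF(GAA)Q (-1.11) and tN(GUU)Q (-1.09). The mRNAs called lower with it, beside ATP6, VAR1 and COX1, were ATP8 (-1.55), OLI1 (-1.03), COX3 (-0.99), COX2 (-0.99) and COB (-0.84).

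tV(UAC)Q and tY(GUA)Q were the 2 tRNAs with positive values, 0.85 (SE 0.37, edgeR adjusted p = 0.255) and 0.25 (SE 0.37, adjusted p = 0.8). tV(UAC)Q had 151 and 162 CPM after TMM scaling in rapamycin-treated ubc9-1, against 103 and 70 CPM in rapamycin-treated WT, and was the 1 member with both ubc9-1 libraries above both WT ones; with the replicate block it gave 0.90 (adjusted p = 0.0272). The other tRNAs had -1.31 for tC(GCA)Q, -1.28 for tM(CAU)Q1, -1.18 for tS(GCU)Q1, -1.12 for tP(UGG)Q, -1.01 for tF(GAA)Q, -0.99 for tN(GUU)Q, -0.97 for tT(XXX)Q2, -0.94 for tH(GUG)Q, -0.69 for tQ(UUG)Q, -0.63 for tW(UCA)Q, -0.61 for tI(GAU)Q, -0.46 for tA(UGC)Q, -0.29 for tD(GUC)Q, -0.24 for tG(UCC)Q and -0.14 for tS(UGA)Q2.

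**Figure D3:**
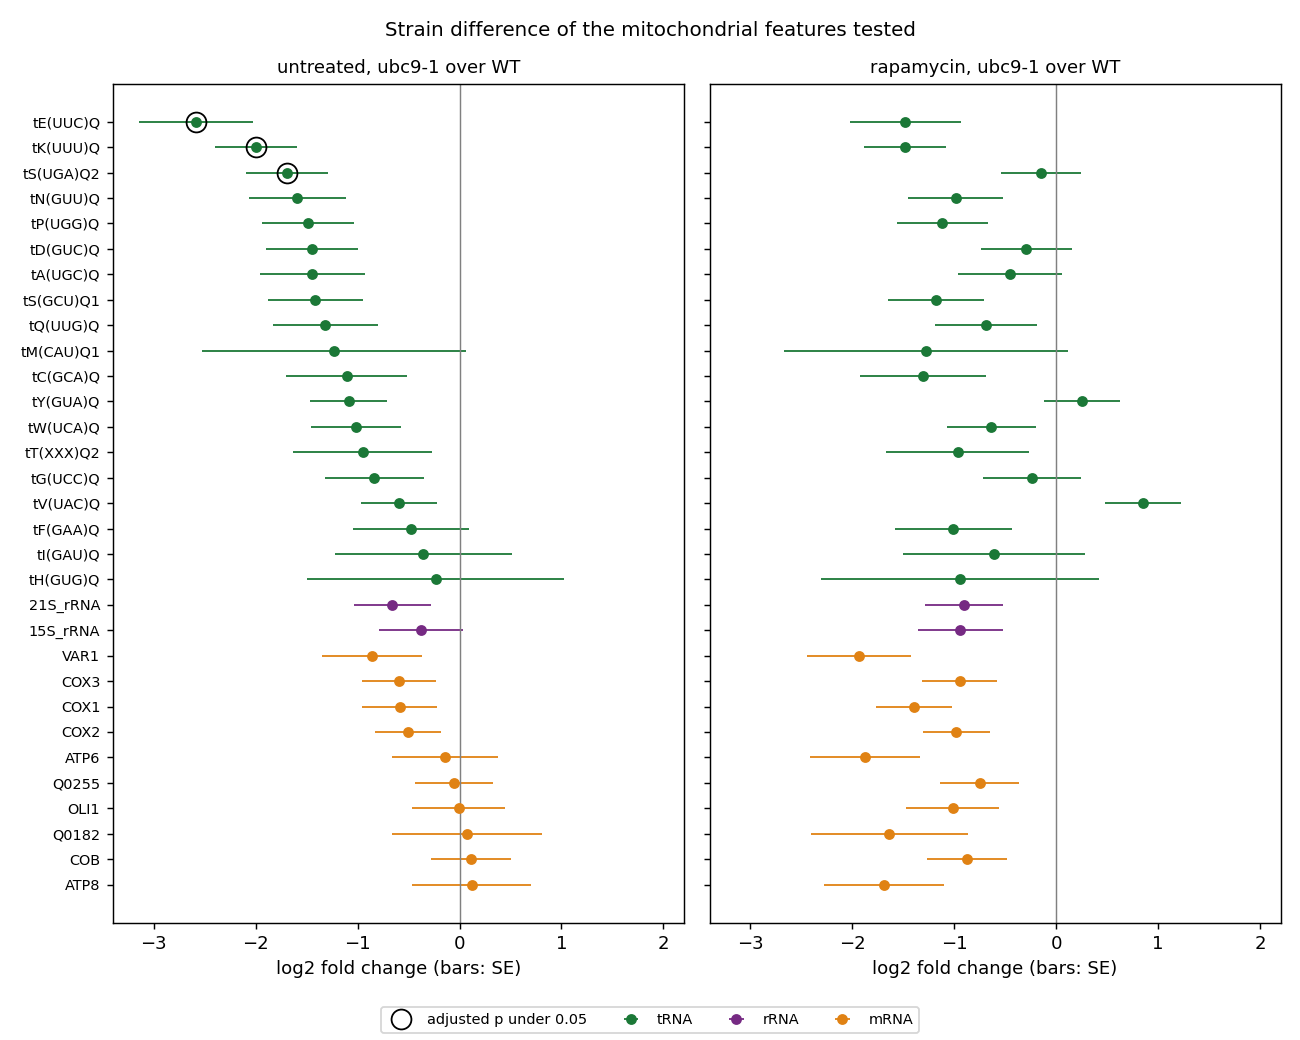
Log2 fold change of ubc9-1 over WT (x axis; bars are the SE) for the 31 mitochondrial features tested, untreated (left) and with rapamycin (right), sorted by the untreated value within each class; open circles mark adjusted p under 0.05 in the fit without the replicate block. All 19 tRNAs lie left of 0 without rapamycin, with 3 called, and all 10 mRNA features lie left of 0 with rapamycin, with none called.

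**Figure D4:**
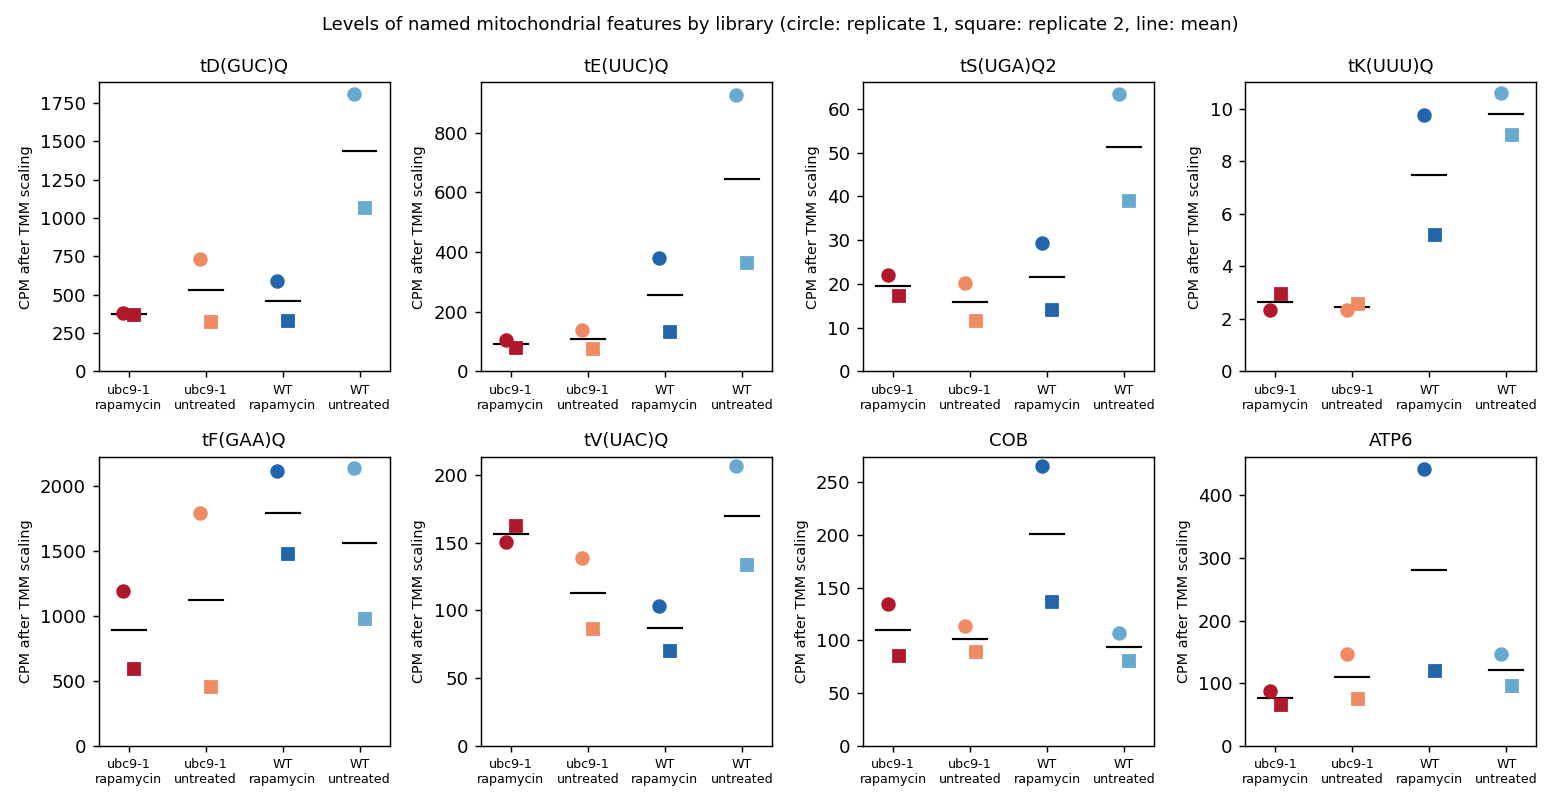
CPM after TMM scaling (linear axes from 0, one scale per panel) of 6 tRNAs and 2 mRNAs in each library; circles are replicate 1, squares replicate 2 and lines the mean of 2. tK(UUU)Q is between 2.34 and 2.96 in all 4 ubc9-1 libraries and at least 5.18 in WT, while tV(UAC)Q is 151 and 162 in rapamycin-treated ubc9-1, against 103 and 70 in rapamycin-treated WT.

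The response to rapamycin in ubc9-1 minus that in WT was tested as an interaction of strain and treatment. The edgeR test called 0 of 31 members, 5 had an unadjusted p under 0.05, and the DESeq2 Wald test and limma called 0; of all features 0.164% were called (0.131% higher and 0.0327% lower). With the replicate block it called 5 members, tS(UGA)Q2 (1.64, adjusted p = 0.00683), tV(UAC)Q (1.502, adjusted p = 0.0137) and tY(GUA)Q (1.32, adjusted p = 0.0167) higher and ATP8 (-1.67, adjusted p = 0.0235) and ATP6 (-1.45, adjusted p = 0.0374) lower, against 6.46% of all features (4.5% higher and 1.96% lower). The median was 0.51 for tRNAs, -0.41 for rRNAs and -0.998 for mRNA features, beside -0.05 over all features; on snoRNAs the tRNA median was -0.18 and that of all features -0.80. The tRNA median was 1.27 without replicate 1 of untreated ubc9-1 and 0.08 without replicate 2, where the rRNA median was -0.02; without replicate 2 of rapamycin-treated ubc9-1 the rRNA and mRNA medians were -0.78 and -1.25, and without replicate 1 of rapamycin-treated WT the mRNA median was -0.48. Without the block the interaction was 1.55 (SE 0.56, adjusted p = 0.258) for tS(UGA)Q2, 1.45 (SE 0.53, adjusted p = 0.262) for tV(UAC)Q, 1.34 (SE 0.53, adjusted p = 0.285) for tY(GUA)Q, 1.15 (SE 0.63, adjusted p = 0.451) for tD(GUC)Q, -1.81 (SE 0.82, adjusted p = 0.344) for ATP8 and -1.74 (SE 0.74, adjusted p = 0.319) for ATP6.

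The spread between the 2 libraries of a group lay mostly to one side for tRNAs. In CPM after TMM scaling, replicate 1 had the higher level in 15 of 19 tRNAs in rapamycin-treated ubc9-1, in 18 in untreated ubc9-1, in 18 in rapamycin-treated WT and in 17 in untreated WT. The median log2 ratio of replicate 1 over replicate 2 was 0.60, 0.87, 0.84 and 0.70 in these groups. This ratio is of the size of the tRNA medians between groups, and its part in them was not tested.

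Nuclear genes of the mitochondrial genetic system were counted in the same edgeR fit, from fragments of 50 to 100 nt. For rapamycin in WT, the transcription list (RPO41 and MTF1) had none called of 2, with 0.55 (SE 0.33, adjusted p = 0.256) for RPO41. In the RNA processing and decay list 1 of 11 fell, TRZ1, the nuclease that cuts the 3' end of tRNA precursors, at -3.11 (SE 0.47, adjusted p = 0.000502). Its counts were 18 and 66 in rapamycin-treated WT and 116 and 298 in untreated WT. Of the tRNA modification enzymes, 6 of 15 fell and none rose (median -1.18), among them TRM1, a guanosine methyltransferase of nuclear and mitochondrial tRNA, at -2.26 (SE 0.39, adjusted p = 0.00129), and DUS1, a dihydrouridine synthase, at -1.83 (SE 0.47, adjusted p = 0.0137). Many of these enzymes also act on nuclear-encoded tRNAs, and nuclear tRNA genes had 148 of 263 called lower in this comparison (median -1.49).

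Of the enzymes that charge mitochondrial tRNAs, 2 of 22 rose with rapamycin in WT, PET112, a subunit of the amidotransferase that makes glutaminyl-tRNA, at 1.46 (SE 0.48, edgeR adjusted p = 0.0461), and MSK1, the lysyl-tRNA synthetase, at 1.13 (SE 0.36, adjusted p = 0.0411). Among translation factors and activators 2 of 26 rose, ATP22, needed to translate the ATP6 mRNA, at 1.32 (SE 0.35, adjusted p = 0.0171), and MEF2, a factor of mitochondrial translation, at 1.29 (SE 0.38, adjusted p = 0.0267). None of the 11 splicing factors was called, and the most counted, MSS116, a helicase, had -0.32 (SE 0.31). These shares stand beside 20.4% of all features called.

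Of 74 mitochondrial ribosomal proteins, 1 rose with rapamycin in WT (IMG1, 1.48, SE 0.43, edgeR adjusted p = 0.0259) and 2 fell (MRPL33, -2.28, SE 0.71, adjusted p = 0.0362, and MRPL50, -1.73, SE 0.55, adjusted p = 0.0397). Of 36 nuclear-encoded respiratory subunits, 3 rose, with COX5A at 1.30 (SE 0.44) and QCR2 at 0.995 (SE 0.33) as the highest, and 2 fell, CYC7, an isoform of cytochrome c, at -2.68 (SE 0.55) and COX13 at -1.53 (SE 0.51). Of 14 genes of mitochondrial DNA maintenance, 2 rose, ACO1 (aconitase, also bound to mitochondrial DNA) at 1.91 (SE 0.39) and MDJ1 (a chaperone) at 1.43 (SE 0.32), and ILV5 fell at -1.18 (SE 0.35). In WT, the counts for all 9 lists stand beside 20.4% of all features called (8.77% higher and 11.6% lower). In ubc9-1, rapamycin called 0 of the genes in all 9 lists, beside 1.49% of all features.

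Between the strains, 4 genes of these lists were called, beside 4.69% of all features without rapamycin and 2.01% with it. Without rapamycin MDJ1 was higher in ubc9-1 (1.54, SE 0.32, edgeR adjusted p = 0.0232) and MRS3, a mitochondrial carrier that can suppress a splicing defect, was lower (-1.39, SE 0.37, adjusted p = 0.04997). With rapamycin CYC7 (2.32, SE 0.55, adjusted p = 0.0467) and COX26 (2.17, SE 0.48, adjusted p = 0.0355), a subunit of the respiratory supercomplex, were higher in ubc9-1. RPO41 had 0.12 (SE 0.33) without rapamycin and -1.05 (SE 0.33, adjusted p = 0.115) with it. The interaction called 0 genes of the lists, beside 0.164% of all features.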

How the data were processed

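The deposited counts are whole-number counts per gene, not normalized. Per the submitters' processing notes, reads were handled with TopHat2 2.0.13, featureCounts 1.4.6-p3 and build R64. Per the file headers, featureCounts counted paired reads per gene, counted multi-mapping reads, ignored strand and dropped reads that overlap more than one gene. The deposited CPM values differed by at most 4.4e-10 from CPM computed from these counts and served only an alternative test.

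Members were all features on Mito. All 7126 features were filtered (filterByExpr, minimum count 10), leaving 6115, and fitted together with edgeR 4.0.16 in R 4.3.3 (TMM, quasi-likelihood F test, 1 coefficient per group, 8 libraries, residual df 4). The Benjamini-Hochberg adjustment ran over all 6115 features, with a threshold of 0.05. The SE is the absolute log2 fold change over the square root of F. Alternatives were 4 other scalings, no filter, DESeq2 1.42.0, limma 3.58.1 on log2(CPM + 1), only the groups compared, the replicate number as a block, each library left out, and overlapping features left out. Deviations of same-numbered libraries from their group means correlated at 0.104 to 0.204 over all features in each of the 6 pairs of groups; the labels do not say what a number stands for, so this pairing comes from the data alone, and the block's value stands beside each mitochondrial result whose call it changed; nuclear lists were counted only without it. Members and gene lists were chosen with earlier results of these data known. Members called in any comparison, the 4 most counted of each class, both rRNAs and RPM1 were named; from nuclear lists, up to 2 called genes at each end were named, or the most counted gene. No set test was run. Sequences were read from the RefSeq R64 genome, whose coordinates matched 46 of 55 members. Counting intervals and floors cover counting error only.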

Additional observations from a re-analysis of the deposited data

How the results depend on the processing

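For rapamycin in WT, 2 members were called. The count was 4 with total counts (3 of them higher: COB, ATP6 and ATP8), 1 with snoRNA scaling, 6 with no filter, 7 with the DESeq2 Wald test, 4 with limma (the same 3 higher) and 1 with only the groups compared; leaving out 1 library each gave 0 to 5 (0 without untreated WT replicate 1, 4 without untreated WT replicate 2, 5 without rapamycin-treated WT replicate 1, 3 without rapamycin-treated WT replicate 2, all higher, 4 without untreated ubc9-1 replicate 1, and 1 without either rapamycin-treated ubc9-1 library). For untreated ubc9-1 against WT, 3 were called, against 1 with total counts, 1 with snoRNA scaling, 1 with mitochondrial counts, 7 with no filter and 10 with DESeq2; leaving out 1 library gave 0 to 6 (0 without untreated WT replicate 1 or untreated ubc9-1 replicate 2, 6 without untreated ubc9-1 replicate 1). For rapamycin-treated ubc9-1 against WT, 0 were called, against 1 with total counts (ATP6, lower), 1 with mitochondrial counts (tV(UAC)Q, higher), 4 with no filter, 5 with DESeq2, 1 with limma and 1 with only the groups compared; leaving out 1 library gave 0 to 1. For rapamycin in ubc9-1 no alternative called a member. Over all features, the share called for rapamycin in WT was 13.9% with total counts, 10.2% with snoRNA scaling and 21.1% with no filter. It was 23.5% with DESeq2, 15.6% with limma and 18.2% with only the groups compared. For untreated ubc9-1 against WT the share was 2.03% with total counts, 18.7% with snoRNA scaling and 14.1% with mitochondrial counts. There it was 6.91% with no filter, 9.53% with DESeq2, 2.42% with limma and 1.44% with only the groups compared. Limma called tE(UUC)Q and, not called in the main fit, tD(GUC)Q (-1.38, limma adjusted p = 0.0389) lower in untreated ubc9-1. With only the groups compared, tE(UUC)Q and tK(UUU)Q were called lower. For rapamycin-treated ubc9-1 against WT the share was 0.442% with total counts, 27.7% with mitochondrial counts and 3.82% with no filter. It was 5.61% with DESeq2, 0.703% with limma and 4.67% with only the groups compared. With no filter 39 members were tested. The cause of the differences in member calls was not tested.

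The replicate number as a block gave 15 calls for rapamycin in WT (5 higher, 10 lower), 11 for untreated ubc9-1 against WT (all lower), 17 for rapamycin-treated ubc9-1 against WT (1 higher, 16 lower) and 5 for the interaction (3 higher, 2 lower). It raised the share called over all features too, to 30.9%, 16.5%, 10.7% and 6.46% in these comparisons. It changed no other call of a member.

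With 2 libraries a group, the 8 members under the count filter were not compared in the main fit, and the 16 at 0 give no comparison. All 8 were compared with no filter. Leaving out 1 library renewed the filter, so 32 to 34 members were tested there, some of these 8 among them. No called member reversed its direction under any alternative run. Over single members, 2394 alternative values kept side and direction, 99 newly passed, 28 no longer passed, and 205 uncalled values changed sign.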
